A study of Mus musculus with 9 samples.

Results

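Pleiotrophin (Ptn), midkine (Mdk) and the cell-surface proteins that bind them were followed across cultured mouse hepatic stellate cells of 3 genotypes. The set was chosen by gene symbol and holds 8 genes: the secreted factors Ptn and Mdk, the receptor-type tyrosine phosphatase Ptprz1, the syndecans Sdc1, Sdc2, Sdc3 and Sdc4, and the endocytic receptor Lrp1. Of these, 7 had a row among the 14020 genes of the table of normalised read counts, and Mdk was not analysed here. The set was proposed with results of these libraries in view, so the differences of its genes, and which of them passed the threshold of the fit over all genes, are given as a description and not as evidence.

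Hepatic stellate cells are the vitamin A-storing mesenchymal cells of the liver, which turn into matrix-producing myofibroblasts on injury and in culture. RNA was sequenced from 3 libraries of wild-type (WT) cells, 3 of cells lacking Sqstm1 (Sqstm1 KO) and 3 of cells lacking both Nbr1 and Sqstm1 (Nbr1 Sqstm1 DKO). Sqstm1 encodes p62 and Nbr1 encodes a related protein, and both are receptors that carry ubiquitinated cargo into autophagosomes. All groups were grown for 4 days in DMEM with fetal bovine serum and were collected without further treatment. The labels do not give the kind of knock-out allele, the cells in which it was made, or the sex or age of the animals, and they do not say whether libraries of a group came from separate animals or cultures, so the spread between them may be technical.

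Ptn and Mdk are the members of a small family of heparin-binding growth factors that are secreted into the matrix. When Ptn binds the extracellular part of Ptprz1, the phosphatase is held inactive and tyrosine phosphorylation of its substrates, among them beta-catenin, increases. Both factors also bind the sulfated sugar chains of proteoglycans; the syndecans are transmembrane proteins that carry heparan sulfate chains, and Sdc3, or N-syndecan, is the member best known as a Ptn receptor. Lrp1 takes up many ligands, midkine among them. In liver, Ptn is made by mesenchymal cells including stellate cells and acts on hepatocytes as a growth factor.

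The pattern of the family was led by its ligand Ptn and by Ptprz1. Ptn was near 0 in WT, intermediate in Sqstm1 KO and high in Nbr1 Sqstm1 DKO. Ptprz1 was near 0 in WT and in Nbr1 Sqstm1 DKO and was read mainly in Sqstm1 KO. Among the co-receptors, all Nbr1 Sqstm1 DKO libraries were highest for Sdc1 and all Sqstm1 KO libraries lowest for Sdc4, each by about 1 log2 unit or less. Of these differences only Sdc1 in Nbr1 Sqstm1 DKO against WT passed the threshold over all genes, and it passed in 7 of 17 alternative settings. Groups without overlap were seen in 21% to 31.2% of all tested genes, depending on the comparison. Sdc2, Sdc3 and Lrp1 had overlapping groups in all 3 comparisons.

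The sequences just upstream of Ptn and Ptprz1 are shown because the pair had the largest differences of the set and their patterns over the genotypes were unlike. They are the 250 bases before the annotated start of each gene in RefSeq, on build GRCm38.p6, 5′ to 3′ on the gene's own strand; the Ptn window is chr6:36810180-36810429 on the minus strand and the Ptprz1 window is chr6:22875252-22875501 on the plus strand. Capitals mark a CCAAT box in Ptn and GC boxes (GGGCGG on either strand) in Ptprz1.
Ptn: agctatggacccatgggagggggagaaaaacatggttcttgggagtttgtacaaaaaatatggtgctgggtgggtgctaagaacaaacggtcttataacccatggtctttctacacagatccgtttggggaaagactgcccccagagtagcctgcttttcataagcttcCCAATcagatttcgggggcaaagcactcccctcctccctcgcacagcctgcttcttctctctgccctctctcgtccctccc
Ptprz1: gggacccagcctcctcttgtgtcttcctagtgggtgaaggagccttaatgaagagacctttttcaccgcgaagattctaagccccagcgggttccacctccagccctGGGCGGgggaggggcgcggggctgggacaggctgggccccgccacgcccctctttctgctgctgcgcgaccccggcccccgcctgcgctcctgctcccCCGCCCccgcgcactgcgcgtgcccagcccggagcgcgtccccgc
The Ptn window held 52% G and C and 5 CpG dinucleotides, near the medians of 52.4% and 6 over the 32851 windows of the RefSeq table. The Ptprz1 window held 71.6% G and C and 22 CpG. The CCAAT box of Ptn began 81 bases before the start, and no GC box was found in its window. The GC boxes of Ptprz1 began 143 and 45 bases before the start, and no CCAAT was found there. Of all windows, 33.9% held a CCAAT and 32.7% a GC box on either strand, so both are common sequences.

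The RefSeq table also held the windows of Sdc1, Sdc3, Sdc4 and Lrp1. Each held at least 1 GC box: 3 in Sdc1, 3 in Sdc3, 4 in Sdc4 and 1 in Lrp1, and Sdc1 had a CCAAT box as well, 82 bases before its start. Of the other motifs searched on both strands, TTCNNNGAA (7.02% of all windows) and TGACNNNGC (10.2%) were found in Lrp1 alone of the 6 genes. TATAAA (12.4% of all windows), TGANTCA (6.75%) and ACGTG (16.6%) were in none of the 6. A match here is a run of letters and not a measured binding site. Distances are from the RefSeq start. In the GENCODE M21 annotation, also on GRCm38, the Sdc4 window lies wholly inside the gene. The Sdc1 and Ptn windows lie partly inside theirs.

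A limit on strand touches every level that follows. Of the 100 genes with the highest mean that have a position in the GENCODE M21 annotation, 71% share exonic bases with a gene of the opposite strand, against 36.5% of 12351 such genes in all. Averaged over the 9 libraries, Pcsk7 had 10632 normalised counts and Tagln, the smooth muscle gene opposite to it, had 271, while the abundant housekeeping genes Actb and Gapdh had 1079 and 109. By group, Pcsk7 had means of 2116, 19637 and 10142 in WT, Sqstm1 KO and Nbr1 Sqstm1 DKO, and Tagln had 114, 462 and 237. Whether reads were counted on the gene's own strand or on the other one was not tested. The values of Ptn, Ptprz1 and the other genes are therefore reads assigned to a gene. They may come in part or wholly from the other strand and not from its mRNA.

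Depth set the floor for the low genes. The whole reads behind the values could be recovered, and they summed to between 819677 and 1467793 reads per library. One read was worth between 0.606 and 1.36 normalised counts. The third Sqstm1 KO library stood apart: it had reads for 12673 genes against 13349 to 13794 in the others, 18.5% of its reads fell on its 10 most abundant genes (9.74% to 13.9% elsewhere), and its correlation with the other libraries of its group was 0.861 and 0.863. Sqstm1, the targeted gene, had 240.4 ± 16.1 normalised counts in WT, 52.8 ± 29.8 in Sqstm1 KO and 45.7 ± 17.7 in Nbr1 Sqstm1 DKO (SD, n = 3 each). Nbr1 had 101 ± 7.64, 78.9 ± 8.85 and 90.7 ± 17.5 in the same order, so these counts do not check the Nbr1 label. Reads of 4 Y-linked genes numbered 129 to 292 in WT libraries, 0 in Sqstm1 KO and 80 to 89 in Nbr1 Sqstm1 DKO, so genotype and sex cannot be told apart between Sqstm1 KO and the other groups. Of 10 stellate cell markers, 6 had a row (Pdgfrb, Pdgfra, Hgf, Acta2, Col1a1 and Col1a2), with a summed level of 1223 to 1320 in WT, 4318 to 5206 in Sqstm1 KO and 3439 to 5696 in Nbr1 Sqstm1 DKO. Col1a1, Col1a2 and Acta2 made up most of the sum (751, 293 and 84.5 in WT, 1809.6, 2109.6 and 819 in Sqstm1 KO, and 1864, 1733 and 382 in Nbr1 Sqstm1 DKO), whereas Pdgfrb had 55.9, 52.9 and 66.2, Pdgfra 98.6, 74.1 and 234, and Hgf 3.73, 0.994 and 28.3 in WT, Sqstm1 KO and Nbr1 Sqstm1 DKO. The markers Des, Lrat, Reln and Rgs5 were not analysed here. Summed levels of other cell types were low for cholangiocytes (2 of 5 markers with a row; 16.3 to 26.4, 29.2 to 34.7 and 25.8 to 49.1 in WT, Sqstm1 KO and Nbr1 Sqstm1 DKO), macrophages (4 of 6; 20.3 to 35.4, 8.68 to 12.3 and 14.3 to 29.3), endothelium (1 of 6; 9.70 to 16.3, 2.17 to 8.17 and 2.87 to 12.6) and glia (1 of 5, S100b; 3.64 to 10.5, 0.812 to 6.51 and 2.28 to 7.64). Portal fibroblast and mesothelial markers (4 of 6) summed to 202 to 244, 231 to 432 and 313 to 323, most of it Fbln2 (191, 338 and 297 as group means). Of the same list Igfbp6 had 25.7, 2.30 and 11.6, and Thy1 had 1.56, 5.97 and 3.86. Wt1 had no read in WT or Sqstm1 KO and a mean of 5.67 in Nbr1 Sqstm1 DKO. That mean rests mostly on the second library (1.91, 12.6 and 2.55, from 2, 11 and 2 reads). The part of other cells or of sex in the results that follow was not tested, and in bulk RNA fewer cells of a type and less RNA per cell cannot be told apart.

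Pleiotrophin had the widest range of the family. In WT its normalised counts were 0, 2.26 and 2.43, which rest on 7 reads in all. In Sqstm1 KO they were 33.7, 49.5 and 59.7, and in Nbr1 Sqstm1 DKO they were 394, 521 and 494. The 3 groups did not overlap, and every Nbr1 Sqstm1 DKO library was above every Sqstm1 KO library, which in turn was above every WT library. The group means were 1.56 ± 1.36, 47.6 ± 13.1 and 469.6 ± 66.8 (SD, n = 3 each). No WT library of Ptn reached the filter on low values. The gene passed it only through Sqstm1 KO and Nbr1 Sqstm1 DKO, so a difference of WT from them was built into its being tested.

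On the log2(value + 1) scale, which understates the change of low genes, Ptn was higher by 4.41 (SE 0.43, 95% interval 3.49 to 5.32) in Sqstm1 KO than in WT. It was higher by a further 3.30 (SE 0.43, 2.38 to 4.22) in Nbr1 Sqstm1 DKO than in Sqstm1 KO. From WT to Nbr1 Sqstm1 DKO the difference was 7.71 (SE 0.43, 6.79 to 8.63), the largest rise of the 10118 genes tested in that comparison on this scale; by the fold of edgeR and of DESeq2 on the recovered reads it ranked 8 and 5. The 3 comparisons share their groups, so these differences are not independent of each other.

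Summed over the libraries of a group and scaled by their size factors, reads of Ptn were 25.2 times as many in Sqstm1 KO as in WT (95% exact interval 11.9 to 63.8). The ratio was 9.76 (8.23 to 11.6) from Sqstm1 KO to Nbr1 Sqstm1 DKO and 246 (119 to 613) from WT to Nbr1 Sqstm1 DKO. These intervals cover counting error only, and the wide ones reflect the 7 WT reads. Leaving out the third Sqstm1 KO library gave log2 differences of 4.23 from WT to Sqstm1 KO and 3.48 from Sqstm1 KO to Nbr1 Sqstm1 DKO.

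Ptprz1, the phosphatase receptor of both factors, had another order. Its normalised counts were 1.36, 0 and 1.21 in WT, 56.1, 56.8 and 80.3 in Sqstm1 KO, and 0.956, 3.42 and 3.82 in Nbr1 Sqstm1 DKO. All Sqstm1 KO libraries lay above all others, while WT and Nbr1 Sqstm1 DKO overlapped near the level of single reads. The group means were 0.858 ± 0.747, 64.4 ± 13.7 and 2.73 ± 1.55 (SD, n = 3 each), from 3, 199 and 7 reads. The gene passed the filter on low values only through the Sqstm1 KO group, so a difference of that group from the others was built into its being tested.

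The log2 difference of Ptprz1 was 5.22 (SE 0.55, 95% interval 4.03 to 6.41) in Sqstm1 KO against WT and −4.22 (SE 0.55, −5.41 to −3.03) in Nbr1 Sqstm1 DKO against Sqstm1 KO. Between Nbr1 Sqstm1 DKO and WT it was 1.00 (SE 0.55, −0.19 to 2.19), an interval that holds 0. In summed reads scaled by the size factors, Sqstm1 KO had 78.6 times the level of WT (26.5 to 384, counting error only) and 24.6 times that of Nbr1 Sqstm1 DKO (11.7 to 61.9). The ratio of Nbr1 Sqstm1 DKO to WT was 3.20 (0.730 to 19.2). Without the third Sqstm1 KO library the differences were 5.05 and −4.05. The highest Ptn level was thus measured in cells with a few reads of Ptprz1, and both genes stood clearly above single reads together only in the Sqstm1 KO libraries.

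**Figure D1:**
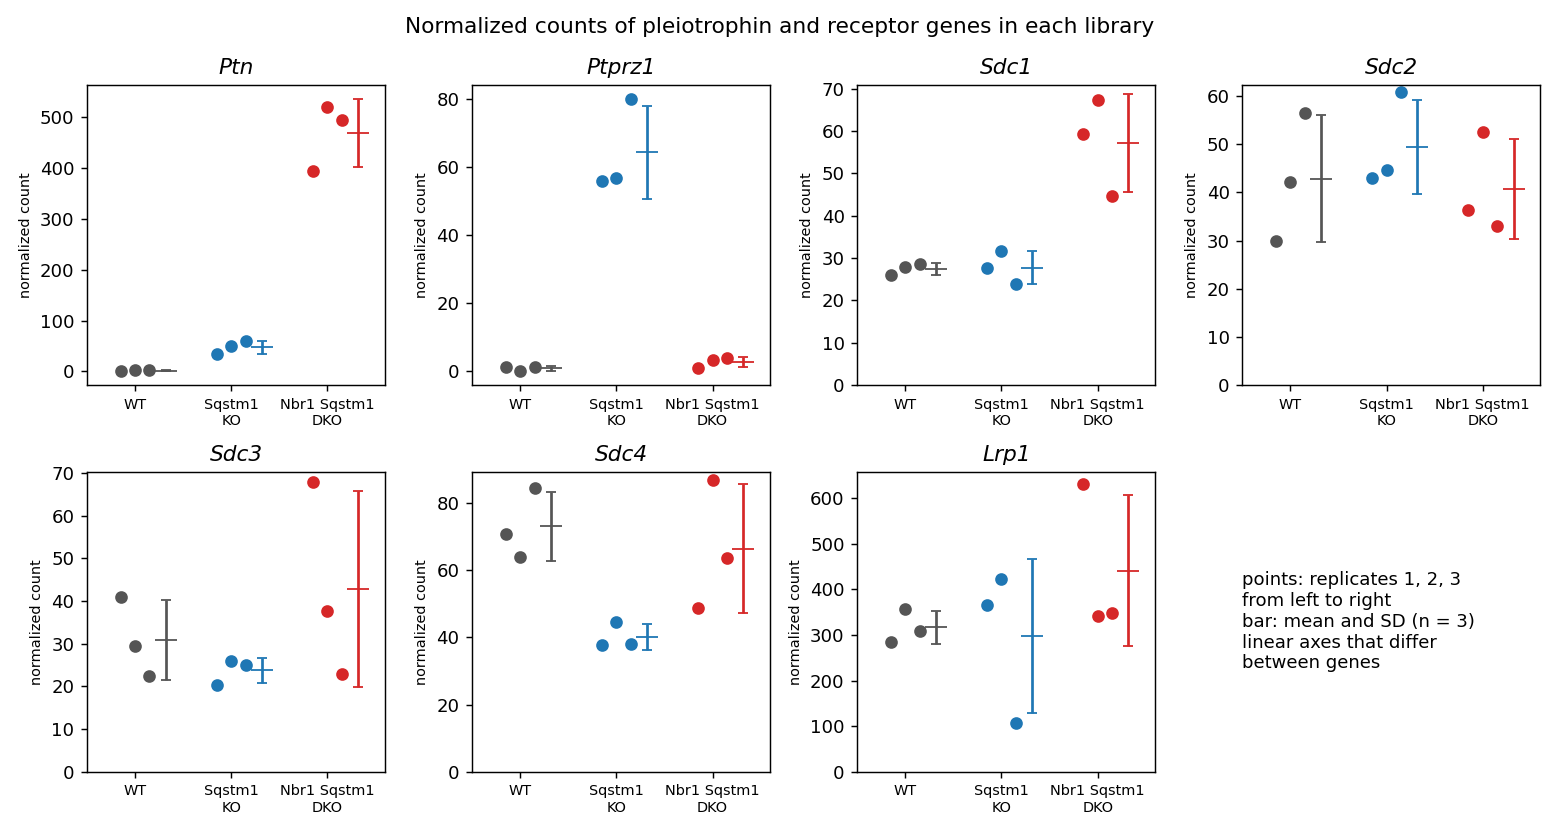
Normalised read counts of the 7 genes of the family in each of the 9 libraries by genotype, on linear axes that differ between genes, with points for libraries and bars for the mean and SD (n = 3). Ptn steps up from 0 to 2.43 in WT to 394 to 521 in Nbr1 Sqstm1 DKO, whereas Ptprz1 is high in the 3 Sqstm1 KO libraries.

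The syndecans, the heparan sulfate co-receptors, moved over a much narrower range than Ptn and Ptprz1. Sdc1, the syndecan most typical of epithelia, had 25.9, 27.9 and 28.5 normalised counts in WT and 27.6, 31.7 and 23.9 in Sqstm1 KO, and 59.3, 67.4 and 44.6 in Nbr1 Sqstm1 DKO. WT and Sqstm1 KO overlapped and all Nbr1 Sqstm1 DKO libraries were above them. The log2 difference of Sdc1 was 0.01 (SE 0.28) in Sqstm1 KO against WT, 1.01 (SE 0.28) in Nbr1 Sqstm1 DKO against Sqstm1 KO and 1.01 (SE 0.28, 95% interval 0.40 to 1.62) in Nbr1 Sqstm1 DKO against WT. Only the last passed the threshold over all genes, and it was lost in 10 of 17 alternative settings, among them leaving out any 1 of the 3 WT or 3 Nbr1 Sqstm1 DKO libraries.

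Sdc4, a widely expressed syndecan of focal adhesions, had 70.8, 64.0 and 84.3 normalised counts in WT, 37.8, 44.6 and 38.0 in Sqstm1 KO, and 48.8, 86.8 and 63.7 in Nbr1 Sqstm1 DKO. Every Sqstm1 KO library was below every library of the other groups, and WT and Nbr1 Sqstm1 DKO overlapped. The log2 difference was −0.84 (SE 0.28, 95% interval −1.44 to −0.25) in Sqstm1 KO against WT and 0.68 (SE 0.28, 0.08 to 1.27) in Nbr1 Sqstm1 DKO against Sqstm1 KO, and neither passed the threshold over all genes.

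Sdc2, the main syndecan of mesenchymal cells, had 30.0, 42.2 and 56.4 normalised counts in WT, 42.9, 44.6 and 60.7 in Sqstm1 KO, and 36.3, 52.5 and 33.1 in Nbr1 Sqstm1 DKO. All groups overlapped, and the log2 differences lay between −0.29 and 0.23 (SE 0.31 each). Sdc3, the syndecan best known for binding Ptn, had 40.9, 29.4 and 22.4 in WT, 20.4, 25.97 and 24.9 in Sqstm1 KO, and 67.9, 37.7 and 22.9 in Nbr1 Sqstm1 DKO. Its groups overlapped too: the spread within Nbr1 Sqstm1 DKO (SD 22.9) was larger than the differences between means, and the log2 difference of Nbr1 Sqstm1 DKO from Sqstm1 KO was 0.70 (SE 0.38, 95% interval −0.13 to 1.52). For Sdc2 the 95% intervals of the 3 comparisons reached from −0.96 to 0.90.

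Lrp1, the large endocytic receptor, was the most abundant of the receptors in raw values, with 285, 356 and 310 normalised counts in WT, 365, 424 and 106 in Sqstm1 KO, and 632, 342 and 349 in Nbr1 Sqstm1 DKO. The groups overlapped in all comparisons. Its difference in Sqstm1 KO against WT was −0.31 (SE 0.43) and rested on the third Sqstm1 KO library: without it, the value was 0.32. The differences of Nbr1 Sqstm1 DKO were 0.73 (SE 0.43, 95% interval −0.20 to 1.66) from Sqstm1 KO and 0.42 (SE 0.43, −0.51 to 1.35) from WT.

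Counted over the set, 2 of the 7 genes passed the threshold in Sqstm1 KO against WT, Ptn and Ptprz1, both higher, where 5.61% of all 10118 tested genes did (568 genes, 2.43% higher and 3.18% lower). Sdc4 joined them among the 3 genes whose groups did not overlap, against 26% of all tested genes. In Nbr1 Sqstm1 DKO against Sqstm1 KO, Ptn was called higher and Ptprz1 lower, where 5.93% of all genes were called (600 genes, 4.42% higher and 1.51% lower). Here 4 genes, Ptn, Ptprz1, Sdc1 and Sdc4, had groups that did not overlap, against 21% of all genes. In Nbr1 Sqstm1 DKO against WT, Ptn and Sdc1 were called higher, where 6.42% of all genes were called (650 genes, 4.11% higher and 2.31% lower), and these 2 were also the genes with no overlap, against 31.2% of all genes. The median log2 difference of the 7 genes was 0.01, 0.70 and 0.42 in the 3 comparisons in this order, and that of all tested genes was −0.01, −0.01 and −0.02. Since these same contrasts brought the set forward, nothing is read from the counts.

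**Figure D2:**
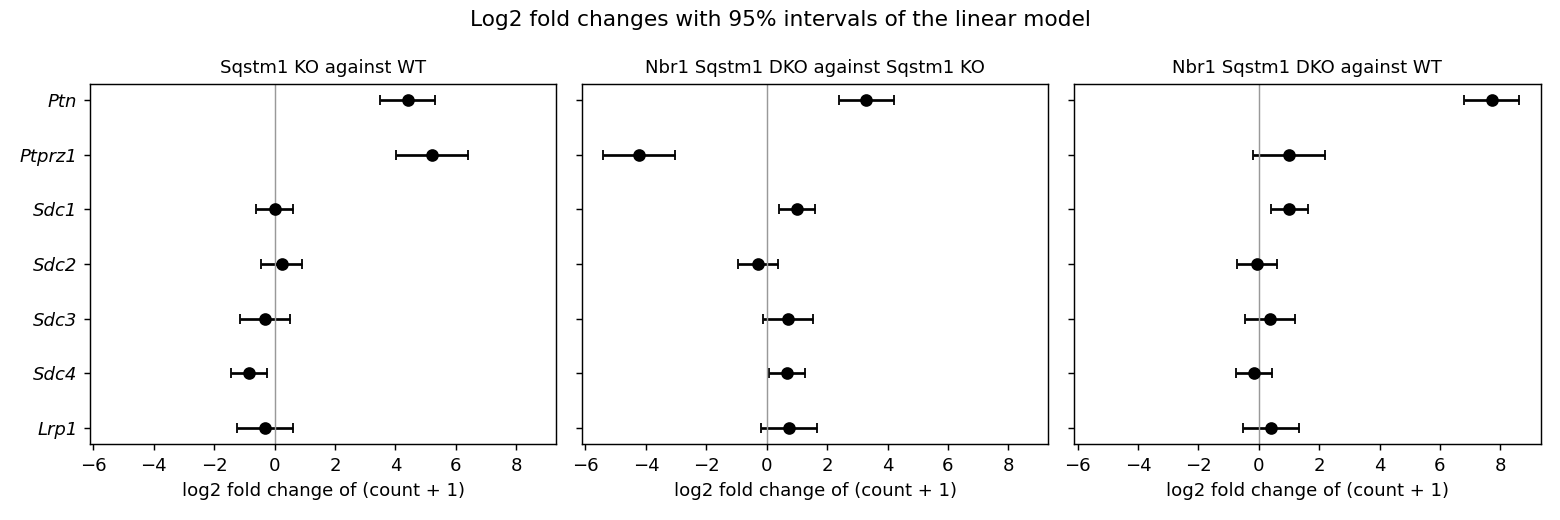
Log2 differences on the log2(value + 1) scale of the 7 genes in the 3 comparisons, with points for estimates and lines for 95% intervals from the fit over all genes. Ptn lies above 0 in all 3 comparisons (4.41, 3.30 and 7.71), and Ptprz1 lies at 5.22 in Sqstm1 KO against WT and at −4.22 in Nbr1 Sqstm1 DKO against Sqstm1 KO.

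Levels of different genes were compared per kilobase of exon, using exon lengths of the GENCODE M21 annotation. In WT, Sdc4 was the highest of the 7 at 28.7 ± 4.05 normalised counts per kilobase, followed by Lrp1 at 17.9 ± 2.05 and Sdc2 at 12.1 ± 3.75 (SD, n = 3 each), and Ptn was in place 6 at 0.455 ± 0.395. In Sqstm1 KO, Lrp1 at 16.8 ± 9.54, Sdc4 at 15.8 ± 1.53, Sdc2 at 14.0 ± 2.79 and Ptn at 13.9 ± 3.81 did not differ beyond their spread, and Ptprz1 was at 4.52 ± 0.964 per kilobase over its 14245 exon bases. In Nbr1 Sqstm1 DKO, Ptn led at 137 ± 19.5, above Sdc4 at 26.1 ± 7.52 and Lrp1 at 24.9 ± 9.33, which did not differ beyond their spread. Ptprz1 was in the last place in WT and in Nbr1 Sqstm1 DKO, and Sdc3 in Sqstm1 KO at 3.97 ± 0.493. These are levels of reads as counted, with the limit on strand given above. Of the 7 genes, only Sdc3 has exons that overlap exons on the other strand, over 415 bases (6.93% of its exon bases) with Gm26716 and 48 bases with Gm12970, and its reads there cannot be assigned to a strand.

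**Figure D3:**
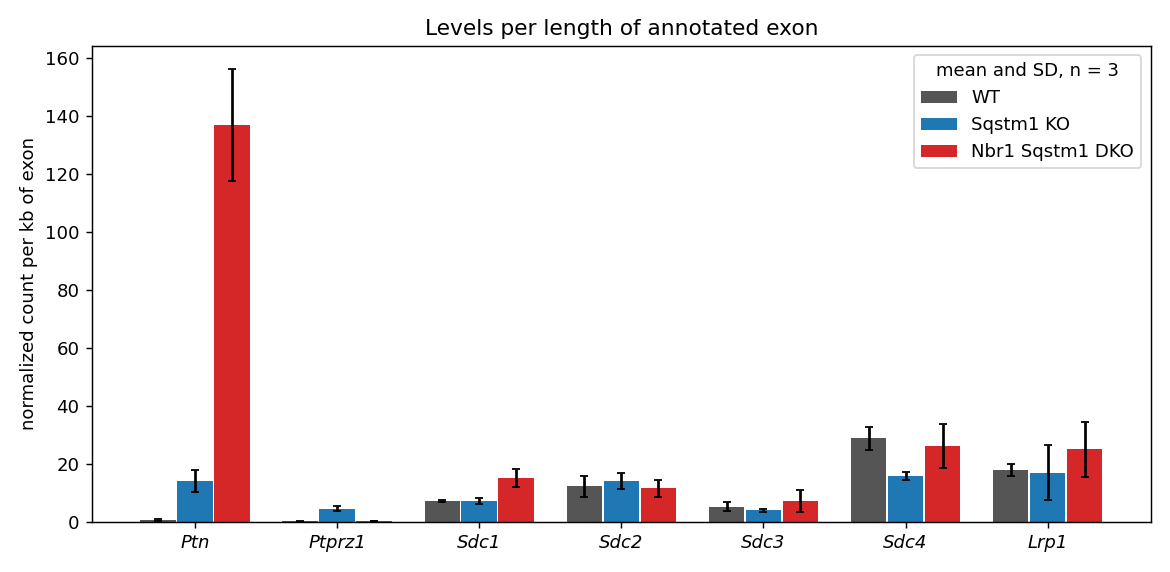
Normalised read counts per kilobase of exon for the 7 genes in each genotype, with columns for means and lines for the SD (n = 3). Ptn goes from 0.455 in WT to 13.9 in Sqstm1 KO and 137 in Nbr1 Sqstm1 DKO, while the group means of the syndecans and Lrp1 lie between 3.97 and 28.7.

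The genes most like each member were named by Pearson's r of log2(value + 1) over the 9 libraries, among 8639 genes, as a description. Those most like Ptn were Dcn (r = 0.980), the matrix proteoglycan decorin, Lgi2 (0.979) and F11r (0.979), a junctional adhesion molecule. Dcn had 1.21 ± 1.59, 25.6 ± 2.53 and 96.2 ± 32.6 normalised counts in WT, Sqstm1 KO and Nbr1 Sqstm1 DKO (SD, n = 3 each), and Lgi2 had no read in WT, 6.49 ± 1.92 in Sqstm1 KO and 77.9 ± 11.1 in Nbr1 Sqstm1 DKO. Lgi2 passed the filter on low values only through Nbr1 Sqstm1 DKO, and Dcn only through Sqstm1 KO and Nbr1 Sqstm1 DKO. Part of their likeness to Ptn was thus built in. F11r had 9.33 ± 1.90, 20.1 ± 1.66 and 45.3 ± 5.49, so it was above Ptn in WT and below it in the other groups; that these genes share the steps of Ptn follows from how they were chosen.

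Most like Ptprz1 were Cd24a (0.987), a small glycosylated surface protein, Pkp2 (0.978), a desmosomal plaque protein, and Inhba (0.968), a subunit of activin. Cd24a had 20.3 ± 9.04, 128 ± 14.2 and 31.8 ± 7.67 normalised counts in WT, Sqstm1 KO and Nbr1 Sqstm1 DKO, and Inhba had 24.4 ± 2.26, 79.7 ± 6.97 and 30.8 ± 4.05. Unlike Ptprz1, both had counts well above single reads in all groups. Pkp2 had 2.37 ± 1.47, 30.8 ± 3.37 and 6.12 ± 3.14, from 9, 96 and 16 reads, so it was low in WT and Nbr1 Sqstm1 DKO as Ptprz1 was. Like Ptprz1, Pkp2 passed the filter on low values only through the Sqstm1 KO group, so part of this likeness was built in. Between Ptn and Ptprz1 themselves r was 0.25.

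For Sdc1 the most similar genes were C4b (0.963) and C1s1 (0.952), both of the complement system, and Bmpr2 (0.954), a receptor for bone morphogenetic proteins. C1s1 had 18.7 ± 0.945, 17.9 ± 6.33 and 133 ± 10.2 normalised counts, and Bmpr2 had 62.3 ± 9.97, 63.9 ± 6.17 and 107 ± 6.68, so both were set apart in Nbr1 Sqstm1 DKO as Sdc1 was. C4b had means of 0.404, 0.812 and 21.1 in WT, Sqstm1 KO and Nbr1 Sqstm1 DKO, from 2, 3 and 58 reads. C4b passed the filter on low values only through the Nbr1 Sqstm1 DKO group, so part of its likeness to Sdc1 was built in. Exons of C1s1 overlap those of Gm16567 on the other strand over 576 bases (18.4% of its exon bases). For Sdc4 the most similar genes were Cxxc5 (0.971), Trim30d (0.952) and Irgm2 (0.937), the last an interferon-inducible GTPase. For Sdc2 they were Ncaph (0.951), Nip7 (0.949) and Ndufv3 (0.927), and for Sdc3 they were Poc1a (0.932), Mul1 (0.922) and Pcgf6 (0.909). The genes most like Lrp1 were Iffo2 (0.971), Slc4a2 (0.969) and Ckap5 (0.958). Exons of Slc4a2 overlap those of Fastk on the other strand over 1141 bases (13.7% of its exon bases). Those of Cxxc5 overlap Gm29417 on the other strand over 11 bases. The 9 points of each correlation share 3 genotypes, and those of Lrp1 all share the library in which it was lowest, the third of Sqstm1 KO.

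**Figure D4:**
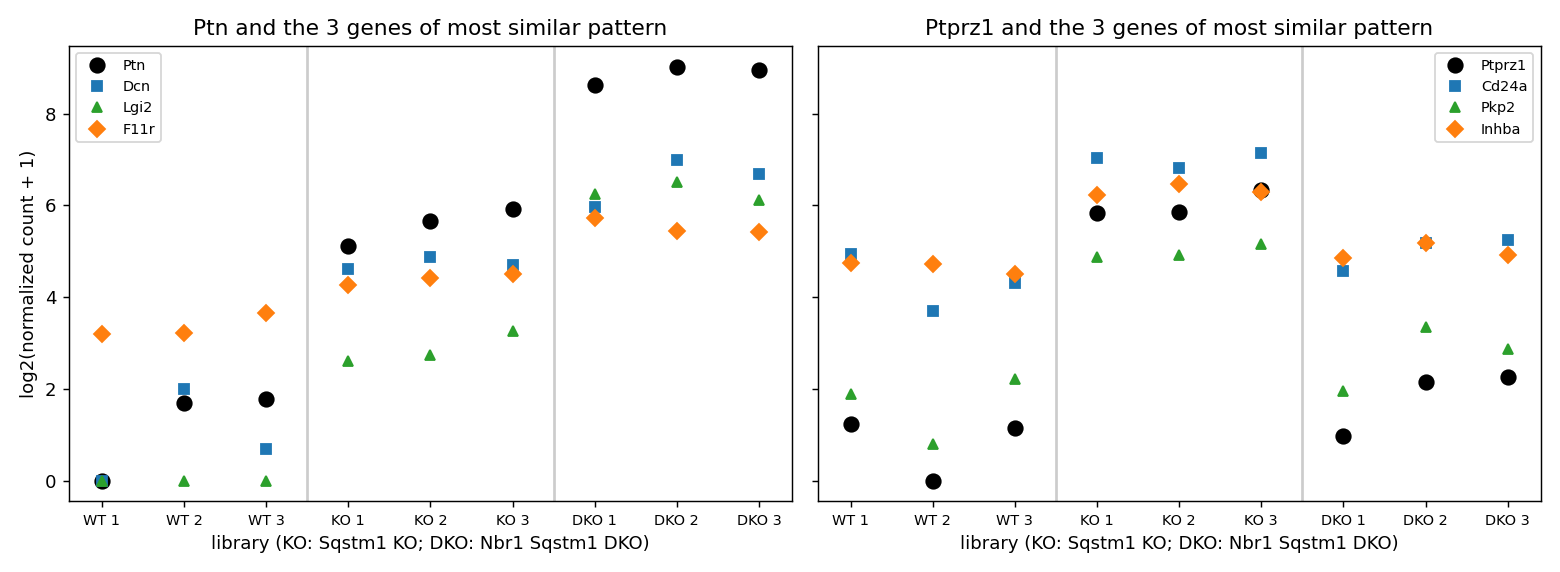
Log2(value + 1) of Ptn and Ptprz1 and of the 3 genes most correlated with each, in the 9 libraries by genotype. The genes near Ptn step up from WT to Sqstm1 KO to Nbr1 Sqstm1 DKO, and those near Ptprz1 are highest in the Sqstm1 KO libraries.

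Around the family, 131 genes in 9 lists were examined: further receptors, other proteoglycan cores, enzymes that build heparan and chondroitin sulfate, other receptor phosphatases, Ptprz1 substrates, syndecan partners, Lrp1 partners and other LDL receptor relatives. Of these, 77 were tested. In Sqstm1 KO against WT, 2 rose and 3 fell (6.49% of the 77, against 5.61% of all tested genes), in Nbr1 Sqstm1 DKO against Sqstm1 KO 5 rose and 2 fell (9.09% against 5.93%), and in Nbr1 Sqstm1 DKO against WT 3 rose and 3 fell (7.79% against 6.42%). The lists were drawn up with earlier results of these libraries known, and adjusted p values below come from limma with Benjamini-Hochberg adjustment over all tested genes. The shares of all tested genes given here stand beside the counts of each list below, from which nothing is read. Likewise, 21% to 31.2% of all tested genes had groups that did not overlap, depending on the comparison.

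Among further receptors and binding partners of Ptn or midkine, 13 of 19 had a row and 10 were tested. In Sqstm1 KO against WT 0 rose and 1 fell, in Nbr1 Sqstm1 DKO against Sqstm1 KO 2 rose and 1 fell, and in Nbr1 Sqstm1 DKO against WT 1 rose and 0 fell, with medians of −0.11, 0.08 and −0.03. Versican (Vcan), a large chondroitin sulfate proteoglycan of the matrix, had 23.2, 34.7 and 31.5 normalised counts in WT, 30.6, 44.6 and 6.51 in Sqstm1 KO, and 141, 224 and 183 in Nbr1 Sqstm1 DKO. All Nbr1 Sqstm1 DKO libraries were above all others, and the log2 differences were 3.03 (SE 0.51, limma adjusted p = 0.0022) from Sqstm1 KO and 2.57 (SE 0.51, limma adjusted p = 0.00716) from WT.

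Integrin alpha 6 (Itga6), a laminin receptor, was lower in Nbr1 Sqstm1 DKO than in Sqstm1 KO by −2.34 (SE 0.62, limma adjusted p = 0.0394), a call lost in 10 of 17 alternative settings, where its limma adjusted p ran up to 0.119. Itga6 passed the filter on low values only through the Sqstm1 KO group, so a difference of that group from the others was built into its being tested. The abundant receptors of the list did not pass in any comparison: nucleolin (Ncl) had 666 ± 34.2, 923 ± 69.8 and 985 ± 328 normalised counts in WT, Sqstm1 KO and Nbr1 Sqstm1 DKO, Itgb1 had 1011 ± 40.2, 1293 ± 201 and 1026 ± 66.1, and Nrp1 had 131 ± 13.6, 118 ± 38.7 and 125 ± 18.7 (SD, n = 3 each). Itgav, the alpha V integrin, had 246 ± 12.8, 223 ± 20.1 and 160.0 ± 42.1.

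Of 12 other heparan sulfate proteoglycan cores, 10 had a row and 9 were tested. In Sqstm1 KO against WT 1 rose and 2 fell, in Nbr1 Sqstm1 DKO against Sqstm1 KO 2 rose and 0 fell, and in Nbr1 Sqstm1 DKO against WT none passed. The medians were 0.18, −0.03 and −0.01. Tgfbr3, or betaglycan, the co-receptor of TGF-beta, had 38.1, 35.4 and 48.5 normalised counts in WT, 3.06, 4.87 and 6.51 in Sqstm1 KO, and 77.5, 84.5 and 77.7 in Nbr1 Sqstm1 DKO. The 3 groups did not overlap, and Tgfbr3 was lowest in the group in which Ptprz1 was highest. It fell by 2.87 (SE 0.32, limma adjusted p = 9.44e-05) from WT to Sqstm1 KO and was higher by 3.84 (SE 0.32, limma adjusted p = 6.46e-06) in Nbr1 Sqstm1 DKO than in Sqstm1 KO.

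Agrin (Agrn), a basement membrane proteoglycan that also counts among the binding partners of Ptn, had 58.6, 71.6 and 70.9 normalised counts in WT, 20.4, 18.7 and 5.42 in Sqstm1 KO, and 65.0, 44.5 and 75.1 in Nbr1 Sqstm1 DKO. Sqstm1 KO lay below the other groups, which overlapped. It fell by 2.28 (SE 0.41, limma adjusted p = 0.00439) in Sqstm1 KO against WT and was higher by 2.13 (SE 0.41, limma adjusted p = 0.00619) in Nbr1 Sqstm1 DKO against Sqstm1 KO. Glypican 4 (Gpc4), a membrane-anchored core protein, rose by 1.59 (SE 0.36, limma adjusted p = 0.0196) in Sqstm1 KO against WT, from 13.9 ± 5.37 to 42.5 ± 12.03 normalised counts (SD, n = 3 each). That call was lost without the first WT library (limma adjusted p = 0.0986) or the third (0.0571).

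Of 29 genes of heparan sulfate synthesis and editing, 19 had a row and 12 were tested, with 0 higher and 1 lower in Sqstm1 KO against WT, 1 and 1 in Nbr1 Sqstm1 DKO against Sqstm1 KO, and none in Nbr1 Sqstm1 DKO against WT. The median log2 difference was 0.10 in Nbr1 Sqstm1 DKO against Sqstm1 KO and −0.06 in Nbr1 Sqstm1 DKO against WT, and nearer to 0 in Sqstm1 KO against WT. Heparanase (Hpse), which cuts heparan sulfate chains, had 14.98, 15.8 and 10.9 normalised counts in WT, 1.02, 0.812 and 0 in Sqstm1 KO, and 6.69, 7.99 and 14.0 in Nbr1 Sqstm1 DKO. Its low level in Sqstm1 KO rests on 2 reads. Scaled by the size factors, the summed reads were 21.1 times as many in WT (95% exact interval 5.55 to 179) and 14.5 times as many in Nbr1 Sqstm1 DKO (3.61 to 126). Hpse passed the filter on low values only through the WT group, so a difference of WT from other groups was built into its being tested. The log2 differences of Hpse were −3.26 (SE 0.55, limma adjusted p = 0.00257) in Sqstm1 KO against WT and 2.72 (SE 0.55, limma adjusted p = 0.00772) in Nbr1 Sqstm1 DKO against Sqstm1 KO; the second was lost without the third Nbr1 Sqstm1 DKO library (0.0534) and in the fit of the 6 libraries compared (0.0637).

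Hs6st2, which adds sulfate to the 6-O position of heparan sulfate, had 55.8, 42.9 and 63.7 normalised counts in WT, 91.9, 94.96 and 116 in Sqstm1 KO, and 35.4, 41.1 and 47.1 in Nbr1 Sqstm1 DKO. It was lower in Nbr1 Sqstm1 DKO than in Sqstm1 KO by −1.27 (SE 0.26, limma adjusted p = 0.00931), and the groups of that comparison did not overlap. Hs6st2 and Gpc4 lie on the X chromosome, and their calls involve Sqstm1 KO, the group without Y-linked reads. The part of sex in these calls was not tested. Of 16 genes of chondroitin and dermatan sulfate synthesis, which build the other class of chain that Ptn binds, 14 had a row and 9 were tested. None passed in any comparison, and the medians were 0.09, 0.06 and 0.61 in the order of comparisons used above.

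Of 13 other receptor-type tyrosine phosphatases, 9 had a row and 8 were tested. The median was −0.50 in Sqstm1 KO against WT, where none passed, 0.01 in Nbr1 Sqstm1 DKO against Sqstm1 KO, where none passed, and −0.21 in Nbr1 Sqstm1 DKO against WT, where 1 fell. This was Ptpre, by 2.56 (SE 0.63, limma adjusted p = 0.025), with 36.3 ± 5.99 normalised counts in WT, 15.8 ± 11.4 in Sqstm1 KO and 6.20 ± 4.68 in Nbr1 Sqstm1 DKO (SD, n = 3 each). The call was lost in 5 of 17 settings, those without any 1 WT library or without the second or the third Nbr1 Sqstm1 DKO library, where the limma adjusted p ran up to 0.124. Ptprg, the closest relative of Ptprz1, had 23.3, 21.5 and 28.8 as group means and did not pass.

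Of 9 substrates and other ligands of Ptprz1, 6 had a row and were tested, with medians of −0.06, −0.07 and 0.18, and only Tnc passed. Tenascin C (Tnc), a matrix glycoprotein that binds Ptprz1, had 50.4, 55.7 and 57.6 normalised counts in WT, 35.7, 67.4 and 44.5 in Sqstm1 KO, and 118, 212 and 148 in Nbr1 Sqstm1 DKO. All Nbr1 Sqstm1 DKO libraries were above all others. It rose by 1.68 (SE 0.30, limma adjusted p = 0.00343) from Sqstm1 KO and by 1.49 (SE 0.30, limma adjusted p = 0.00812) from WT. Exons of Tnc overlap those of 8030451A03Rik on the other strand over 176 bases, and that gene had means of 35.2, 32.2 and 112 normalised counts in WT, Sqstm1 KO and Nbr1 Sqstm1 DKO, the same order as Tnc. Exons of Ptpre overlap those of 5830432E09Rik over 209 bases, which had 5.24, 3.62 and 2.84. Without the strand setting, reads of these overlaps cannot be assigned to either gene, and their part in the Tnc and Ptpre calls was not tested.

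Of 12 syndecan partners and sheddases, 10 were tested and 1 rose against WT in each knock-out genotype, with none passing between the knock-outs and medians of 0.06, −0.12 and −0.11. It was Mmp14, a membrane-anchored metalloproteinase that sheds syndecans, with 125 ± 12.5 normalised counts in WT, 273 ± 116 in Sqstm1 KO and 287 ± 17.2 in Nbr1 Sqstm1 DKO (SD, n = 3 each). The log2 differences from WT were 1.05 (SE 0.28, limma adjusted p = 0.0435) and 1.20 (SE 0.28, limma adjusted p = 0.0197), and they were lost in 8 and 6 of 18 alternative settings, among them leaving out any 1 WT or any 1 Nbr1 Sqstm1 DKO library, with limma adjusted p up to 0.163 and 0.0798.

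Of 14 chaperones, adaptors and ligands of Lrp1, 12 had a row and 10 were tested, with medians of −0.02, −0.11 and 0.12. None passed between Sqstm1 KO and either other group. Of 13 other members of the LDL receptor family, 11 had a row and 7 were tested, with medians of −0.53, −0.33 and −0.37. Lrp11 fell by 2.27 (SE 0.45, limma adjusted p = 0.00679) in Nbr1 Sqstm1 DKO against WT, with 19.1, 18.1 and 18.8 normalised counts in WT, 8.17, 10.6 and 6.51 in Sqstm1 KO, and 4.78, 2.28 and 2.55 in Nbr1 Sqstm1 DKO. Its 3 groups did not overlap. Lrp11 passed the filter on low values only through the WT group, so a difference of WT from other groups was built into its being tested.

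**Figure D5:**
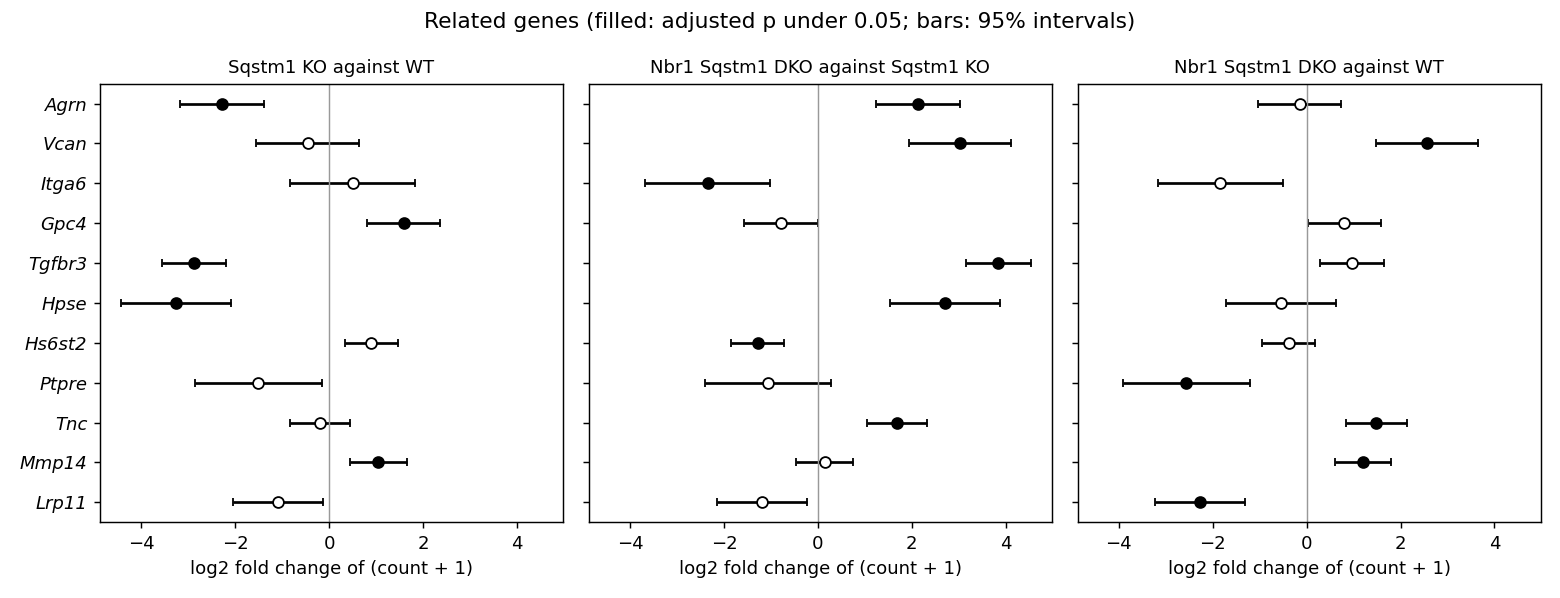
Log2 differences on the log2(value + 1) scale of related genes named above that passed the threshold in at least 1 comparison, with 95% intervals as lines and filled points where the limma adjusted p was under 0.05. Tgfbr3, Agrn and Hpse lie below 0 in Sqstm1 KO against WT and above 0 in Nbr1 Sqstm1 DKO against Sqstm1 KO, and Vcan and Tnc lie above 0 in both comparisons of Nbr1 Sqstm1 DKO.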

How the data were processed

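RNA-seq was analysed from 9 libraries of cultured mouse hepatic stellate cells, grouped by the genotype in the labels (3 WT, 3 Sqstm1 KO, 3 Nbr1 Sqstm1 DKO). The authors deposited 1 table of normalised read counts, a signal of whole reads divided by a size factor per library. Alignment with STAR, use of DESeq2 and build GRCm39 are named in the submitters' processing notes; for the read counter, annotation, strand setting and any filter the entry is not given in the sources used here. Whole reads were recovered: 100% of 121126 values above 0 came out whole within 0.01.

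Values were tested as log2(value + 1) with limma 3.58.1 (trend) in R 4.3.3, two-sided, with 1 fit over the 3 groups, the 10118 of 14020 genes that reached 10 in 3 or more libraries, and Benjamini-Hochberg adjustment over all of them at 0.05. The 3 comparisons share groups. The smallest p of an exact permutation test of 3 libraries against 3 is 0.1, so none is given. Alternatives were pseudocounts of 0.5 and 5, no filter, a minimum of 50, quantile normalization, edgeR 4.0.16 and DESeq2 1.42.0 on recovered reads, the replicate number as a block, only the 6 libraries compared, and leaving out each library.

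The members and lists were chosen with earlier results of these data known. Named were Sqstm1, Nbr1, the members, up to 4 called genes per list and comparison (2 per direction, smallest p first) and the 3 genes most correlated with each member. Itgb1, Itgav, Ncl, Nrp1 and Ptprg were named in addition, after their values were seen. Exon lengths and overlaps came from GENCODE M21 (GRCm38) and promoter windows from RefSeq (GRCm38.p6), matched by symbol (6 members); positions on this build were not applied to the authors' build. One gene of the lists is counted in their totals and is not reported here.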

Additional observations from a re-analysis of the deposited data

How the results depend on the processing

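Since these contrasts put the set forward, the ranges of its genes are a description and no support. Over the 18 alternatives Ptn ranged over 2.99 to 4.88 in Sqstm1 KO against WT, 3.08 to 3.48 in Nbr1 Sqstm1 DKO against Sqstm1 KO and 6.19 to 8.20 in Nbr1 Sqstm1 DKO against WT, and Ptprz1 over 3.56 to 6.31 and −4.62 to −3.17 in the first 2. A minimum value of 50 gave 290, 291 and 360 called genes in place of 568, 600 and 650, with fewer genes tested. Fitting only the 6 libraries compared gave 352 in Nbr1 Sqstm1 DKO against Sqstm1 KO and 1229 in Nbr1 Sqstm1 DKO against WT; the cause was not tested. Leaving out 1 library gave 264 to 659, 333 to 777 and 294 to 1409. The count moved by over 1.5 times in Sqstm1 KO against WT without WT 1 (283), WT 2 (264) or WT 3 (315), in Nbr1 Sqstm1 DKO against Sqstm1 KO without DKO 1 (381) or DKO 3 (333), and in Nbr1 Sqstm1 DKO against WT without WT 1 (401), WT 2 (294), WT 3 (328), Sqstm1 KO 3 (1409), DKO 1 (391) or DKO 3 (327). Members called in Nbr1 Sqstm1 DKO against WT fell from 2 to 1, Sdc1 being lost, with no filter, a minimum of 50 (where Sdc1 was not tested) and the replicate block, and were 1 to 2 without 1 library, against 2 to 2 in the other comparisons. Sdc1 in that comparison stayed at 0.88 to 1.18, and in Nbr1 Sqstm1 DKO against Sqstm1 KO it passed with a pseudocount of 5 (0.91), edgeR (1.04) and DESeq2 (1.04). Signs turned only without 1 library, in differences that had not passed: over these settings Sdc1 in Sqstm1 KO against WT ran from −0.091 (without Sqstm1 KO 2) to 0.11, below 0 also without WT 1 (−0.033), and Lrp1 there from −0.67 to 0.32 (without Sqstm1 KO 3). In Nbr1 Sqstm1 DKO against WT, Sdc2 ran from −0.29 to 0.16 (without WT 3; above 0 also without DKO 1 or DKO 3), Sdc3 from −0.027 (without DKO 1) to 0.74 and Sdc4 from −0.38 to 0.034 (without DKO 1). With the replicate block 690, 672 and 754 genes and 2, 2 and 1 members were called; the deviations of libraries with the same number correlated at −0.115 to 0.178 (0.178, 0.145 and 0.144 for replicates 1), and 5 of 9 libraries correlated best with their own number in both other groups. The labels name no batch, so the main fit held no term for the replicate number. Whether some libraries share a batch was not tested. Depth limits Ptn in WT (7 reads) and Ptprz1 in WT and Nbr1 Sqstm1 DKO (3 and 7 reads).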
